A study of Mus musculus with 25 samples.

Results

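The step from 12 to 16 weeks of age was described here in salivary glands of the C57BL/6.NOD-Aec1Aec2 strain (males), mice that develop a disease like Sjögren's syndrome. The comparison used 10 of the 25 arrays of the study: 5 mice of 12 weeks and 5 mice of 16 weeks, chosen by their labelled age alone. The strain is C57BL/6 with the Idd3 region of chromosome 3 (Aec1) and the Idd5 region of chromosome 1 (Aec2) bred in from the NOD mouse, and every mouse compared carries both. RNA of a lobe holding submandibular, sublingual and parotid gland was hybridised to Affymetrix Mouse Genome arrays, 1 array per mouse, and according to the methods the salivary lymph nodes had been taken off and the mice of an age came from more than 1 litter. The authors placed the arrival of leukocytes at 12 weeks and the early clinical phase at 16 weeks. No array of the C57BL/6 parent was used here, so growing older and the course of disease cannot be told apart in this comparison.

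Sjögren's syndrome is an autoimmune disease of the salivary and tear glands, in which T cells and B cells gather around ducts and saliva flow is lost. Lymphocytes enter a gland through venules with high endothelium, guided by chemokines such as Cxcl13, and can settle into aggregates that resemble lymphoid follicles. Interferons are known to raise a set of genes in gland cells and in leukocytes, among them genes of antigen presentation and the chemokine gene Cxcl9, which draws activated T cells.

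Values are log2 signals per gene, so a difference of 1 is a 2-fold change, and 18194 genes were tested, 11696 of them with a probe set above a mean log2 value of 3.27, called expressed here. The 5 arrays of 12 weeks were much alike, with a median correlation of each array with the others of 0.995 to 0.996. The arrays of 16 weeks were less so (0.974 to 0.985), and the median SD of an expressed gene was 0.27 at 16 weeks against 0.14 at 12 weeks, with a larger SD at 16 weeks for 82.0% of expressed genes. The array of mouse 2 at 16 weeks stood apart, with an upper quartile of 5.20 against 5.68 to 5.93 for the other arrays of both ages, and its expressed genes lay a median 0.39 below the 12-week mean. Without it the median SD at 16 weeks was 0.18. The arrays of mice 3 and 4 at 16 weeks were the closest of the 300 pairs that the 25 arrays form. Over expressed genes the SD of their difference was 0.21, with 29 genes over 1 log2 unit apart. The next pair, mice 2 and 5 at 12 weeks, had 0.26 and 72 genes. Both arrays were kept as separate mice as labelled, and the main results that rest on them are also given without both, some of them also with the pair averaged. Counting the 5 mice of each age as replicates, p-values measure the spread between mice within an age, pooled over all 25 arrays. Mice at 20 weeks, with a median SD of 0.45, thus add to the SEs given below. That age holds an array unlike the rest (mouse 3), and counts without it are given at the end.

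Across all genes, 1 passed an adjusted p under 0.05 (limma, all 5 ages in 1 fit, Benjamini-Hochberg), as lower at 16 weeks, and 0 passed as higher (0.0055% and 0% of genes). At an unadjusted p under 0.05 there were 399 genes higher and 996 lower at 16 weeks, 2.19% and 5.47% of genes. For 101 genes all 5 values at 16 weeks lay above all 5 at 12 weeks (0.555%), and for 515 all lay below (2.83%). Of these, 45 and 511 had an expressed probe set. The median difference was 0.0034 over all genes and -0.13 over expressed genes, so a decrease of that size was shared by the typical expressed gene. After a further quantile normalization the median expressed gene was at -0.0082 and the genes with an unadjusted p under 0.05 were 540 higher and 525 lower, so that the share of higher genes was 50.7% in place of 28.6%. Without mouse 2 at 16 weeks that share was 51.0% (565 and 542). In the text below, "rose" and "fell" are used only for an adjusted p under 0.05.

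**Figure D1:**
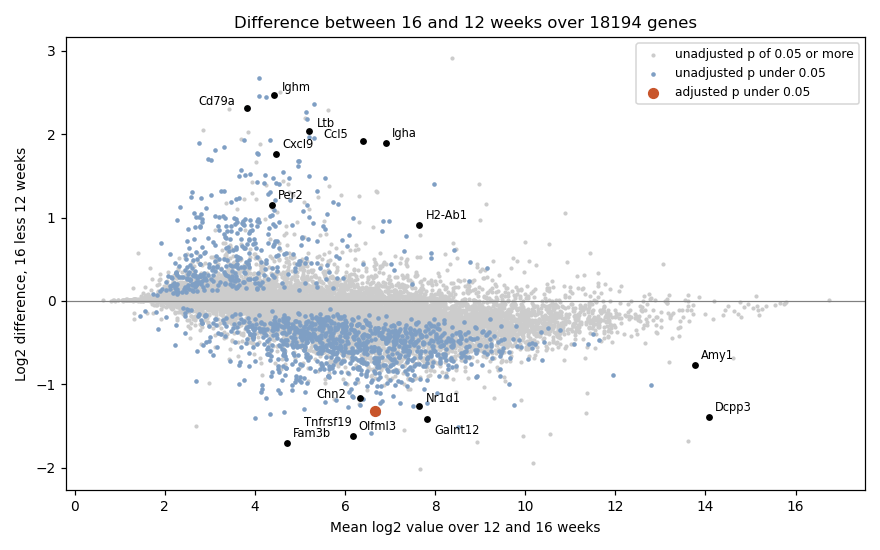
Each point is 1 of 18194 genes, with its mean log2 value over 12 and 16 weeks on the horizontal axis and the log2 difference (16 less 12 weeks) on the vertical axis. Blue points have an unadjusted p under 0.05, and the orange point, Tnfrsf19, is the 1 gene past an adjusted p of 0.05.

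The gene that fell was Tnfrsf19, which encodes TROY, a receptor of the TNF receptor superfamily that is found in epithelia and on stem cells of several tissues. Its log2 values were 7.03, 7.53, 7.16, 7.33 and 7.53 in mice 1 to 5 at 12 weeks, and 6.06, 5.98, 5.99, 6.23 and 5.75 in mice 1 to 5 at 16 weeks. The 5 older mice all lay below the 5 younger ones, with a gap between the groups wider than the spread inside either. The difference was -1.32 with a SE of 0.13 (95% interval -1.58 to -1.05), a 2.49-fold lower signal, and the adjusted p was 2.07e-05. Over the 5 ages the mean went from 8.06 ± 0.15 (SD, n = 5) at 4 weeks through 7.32 ± 0.31 at 8 weeks and 7.32 ± 0.23 at 12 weeks to 6.00 ± 0.17 at 16 weeks and 6.51 ± 0.13 at 20 weeks. Leaving out any array of these ages gave -1.39 to -1.25, and leaving out both mice 3 and 4 gave -1.39. The value rests on 1 of 3 probe sets. The other two were dim, with mean log2 values of 3.15 and 2.98, and had differences of -0.033 and 0.12. After quantile normalization the difference was -1.06 and the adjusted p 0.094.

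**Figure D2:**
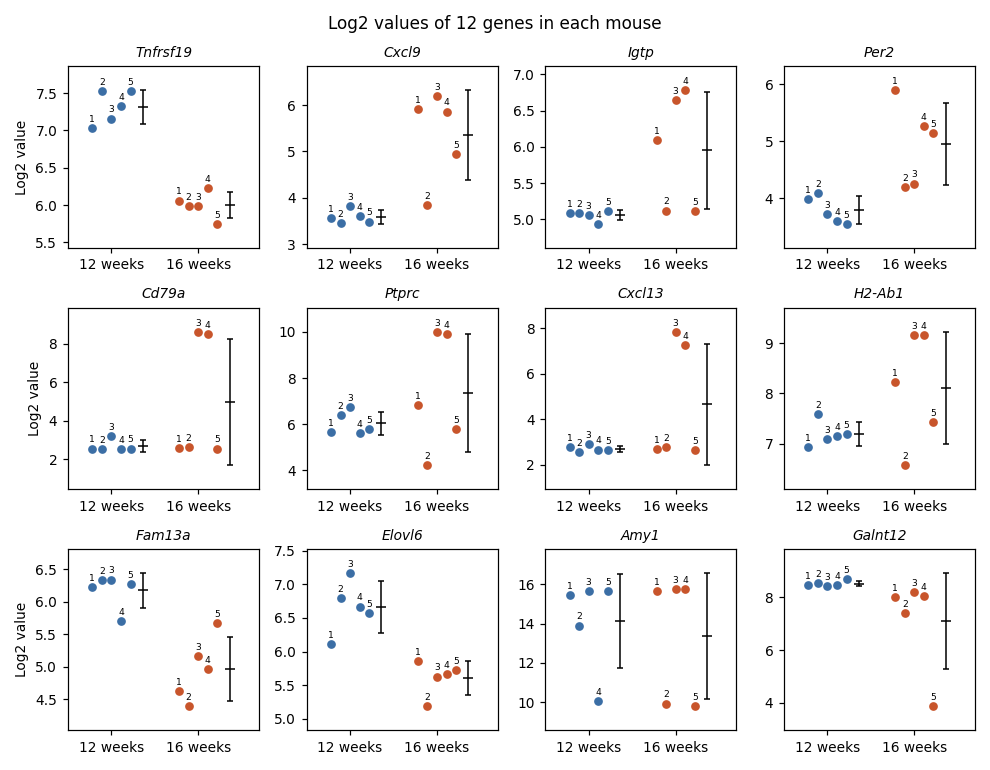
Log2 values of 12 genes in each mouse (number above the point) at 12 weeks (blue) and 16 weeks (orange), with the mean and SD of the 5 mice as bars in black. Tnfrsf19 is lower in all 5 older mice, the lymphoid genes Cd79a and Cxcl13 are high in mice 3 and 4 at 16 weeks, Amy1 is low in mice 2 and 5 at 16 weeks and Galnt12 is low in mouse 5.

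Genes of infiltrating cells were among those with the largest differences, and these came from mice 3 and 4 at 16 weeks. Cd79a, part of the B cell receptor, read 2.55, 2.51, 3.22, 2.53 and 2.55 in mice 1 to 5 at 12 weeks and 2.56, 2.65, 8.64, 8.52 and 2.55 in mice 1 to 5 at 16 weeks. Mice 1, 2 and 5 were thus at the 12-week level, while mice 3 and 4 stood far above it. Because of that spread the difference of 2.31 had a SE of 1.05 and an adjusted p of 0.621. Ms4a1, which encodes the B cell surface protein CD20, read 4.36, 4.43, 9.20, 9.37 and 4.13 at 16 weeks against 4.23 to 4.56 at 12 weeks. Without mice 3 and 4 the differences were -0.086 for Cd79a and -0.036 for Ms4a1, and with the pair averaged as 1 mouse they were 1.41 and 1.21.

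The B cell list as a whole had the same shape. Of its 18 measured genes, 12 had an unadjusted p under 0.05 as higher and 0 as lower, 0 passed the adjusted p, and the median difference was 1.07. At that unadjusted p 2.19% of all genes were higher and 5.47% lower, and the counts of every list below stand beside these shares. The mean of the 18 genes, less its 12-week mean, was -0.01, 0.02, 3.42, 3.25 and -0.01 in mice 1 to 5 at 16 weeks, where the 12-week mice lay between -0.06 and 0.07. Blk, a kinase of B cells, had all 5 values above those of 12 weeks, but mice 1, 2 and 5 only by hundredths (1.80, 1.86 and 1.80 against 1.76 to 1.80), and mice 3 and 4 read 4.06 and 4.23. Cd22, a coreceptor that damps B cell signals, differed by 0.89, and Cxcr5, the receptor for Cxcl13, by 0.90, each with an adjusted p of 0.508. Blk, Cd22 and Cxcr5 differed by 0.037, 0.035 and 0.036 without mice 3 and 4. The list median was 0.028 without mice 3 and 4, and 0.68 with the pair averaged.

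Among genes of antibody-producing cells, Ighm, the heavy chain of IgM, read 3.29, 4.29, 8.91, 8.50 and 3.28 in mice 1 to 5 at 16 weeks and 2.99 to 3.39 at 12 weeks. Jchain, which joins IgA and IgM into polymers, read 5.31, 4.42, 10.10, 9.98 and 4.04 against 3.58 to 5.57. Igha, the heavy chain of IgA that is carried into saliva, was already between 3.85 and 6.96 at 12 weeks, and read 7.26, 6.44, 9.58, 9.72 and 6.24 at 16 weeks, a difference of 1.89 (SE 0.64, adjusted p 0.469). Mouse 1 was thus also above every 12-week mouse for Igha. Ighm, Jchain and Igha differed by 0.43, 0.11 and 0.69 without mice 3 and 4. Immunoglobulin genes share near-identical sequence, so their probe sets can take up signal from each other. Of the 13 measured genes of the plasma cell list 2 were higher and 2 lower at an unadjusted p under 0.05, with a median difference of 0.046. In that list Pigr, the epithelial receptor that carries IgA across the cell, read 7.91 to 9.11 at 16 weeks, lowest in mouse 5, with no overlap with the 9.44 to 10.28 of 12 weeks (difference -1.17, SE 0.63, adjusted p 0.718).

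T cell genes gave smaller differences on a dim signal. Cd3e, the chain that defines the T cell receptor complex, was below the expressed level, at 3.03 to 3.06 at 12 weeks and at 3.02, 3.11, 3.71, 3.09 and 3.06 in mice 1 to 5 at 16 weeks. Cd2, an adhesion receptor of T cells, read 2.93, 3.02, 4.00, 4.13 and 2.93 against 2.84 to 2.93, and Cd5 read 2.14, 2.23, 3.86, 3.82 and 2.14 against 2.11 to 2.14. Cd8a differed by 0.30 and Cd4 by 0.36, with adjusted p-values of 0.521 and 0.876. For Cd4, mouse 2 (5.41) and mouse 4 (5.47) were the highest, so the order of mice was not that of the B cell genes. Of 21 measured T cell genes 12 had an unadjusted p under 0.05 as higher and 0 as lower, the median difference was 0.36, and the scores of mice 1 to 5 were 0.05, 0.19, 1.20, 1.10 and 0.00. Il7r, the receptor for interleukin 7, differed by 0.59 and Ccr7, which guides T cells and dendritic cells to lymphoid tissue, by 1.22 (3.17 or less in mice 1, 2 and 5, and 6.40 and 5.41 in mice 3 and 4). With mice 3 and 4 left out, Il7r differed by 0.051, Ccr7 by 0.076, Cd2 by 0.091, Cd5 by 0.045, Cd8a by 0.073 and Cd4 by 0.26, and the list median was 0.061.

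The pan-leukocyte list, genes used by most white blood cells, had a median difference of 0.91 over 23 measured genes, 14 of them higher at an unadjusted p under 0.05 and 0 lower. Ptprc, which encodes CD45, read 6.84, 4.24, 10.01, 9.89 and 5.80 in mice 1 to 5 at 16 weeks against 5.60 to 6.73 at 12 weeks. Mouse 1 was slightly above the 12-week range and mouse 2 below it. Itgb2, the integrin chain shared by leukocyte adhesion receptors, differed by 1.02 (adjusted p 0.508). Selplg, the ligand on leukocytes for P-selectin, read 6.11, 5.43, 7.40, 7.78 and 5.38 against 4.87 to 5.37, so all 5 older mice were higher, mice 2 and 5 by little (difference 1.16, SE 0.40, adjusted p 0.494). Ptprc differed by -0.41, Itgb2 by 0.26 and Selplg by 0.38 without mice 3 and 4. The list scores were 0.30, -0.22, 2.20, 2.18 and -0.03, and the list median was 0.066 without mice 3 and 4 and 0.63 with the pair averaged. In whole glands, more cells of a type and more RNA of these genes per cell cannot be told apart.

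The macrophage list had a median difference of 0.056 over 26 genes, 2 of them higher at an unadjusted p under 0.05, and scores of 0.29, -0.43, 0.56, 0.58 and 0.04 in mice 1 to 5. Cd68, a lysosomal protein of macrophages, read 5.93, 4.80, 5.96, 6.46 and 5.31 against 4.74 to 6.15, and C1qb, a complement chain made by macrophages, 9.40, 8.22, 8.97, 9.27 and 8.77 against 8.58 to 8.92. Both overlapped the 12-week mice. Lyz1, a lysozyme gene whose near-identical copy Lyz2 can share its signal, read 10.90, 9.54, 13.10, 13.07 and 10.38 against 10.06 to 10.72 and differed by 1.05. Timd4, a phosphatidylserine receptor of resident macrophages, was at 2.17 to 2.29 in every mouse of both ages but mice 3 and 4 at 16 weeks (6.55 and 6.81). Cd83, a marker of mature dendritic cells and activated B cells, read 4.30, 4.15, 8.23, 8.18 and 4.09 against 4.10 to 4.14. Nkg7, a granule protein of cytotoxic cells, read 2.97, 2.42, 5.36, 5.17 and 2.38 against 2.37 to 2.42. Here mouse 1 also stood above the 12-week mice, while its B cell score did not. Lyz1 differed by -0.074, Timd4 by 0.037, Cd83 by 0.066 and Nkg7 by 0.19 without mice 3 and 4.

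**Figure D3:**
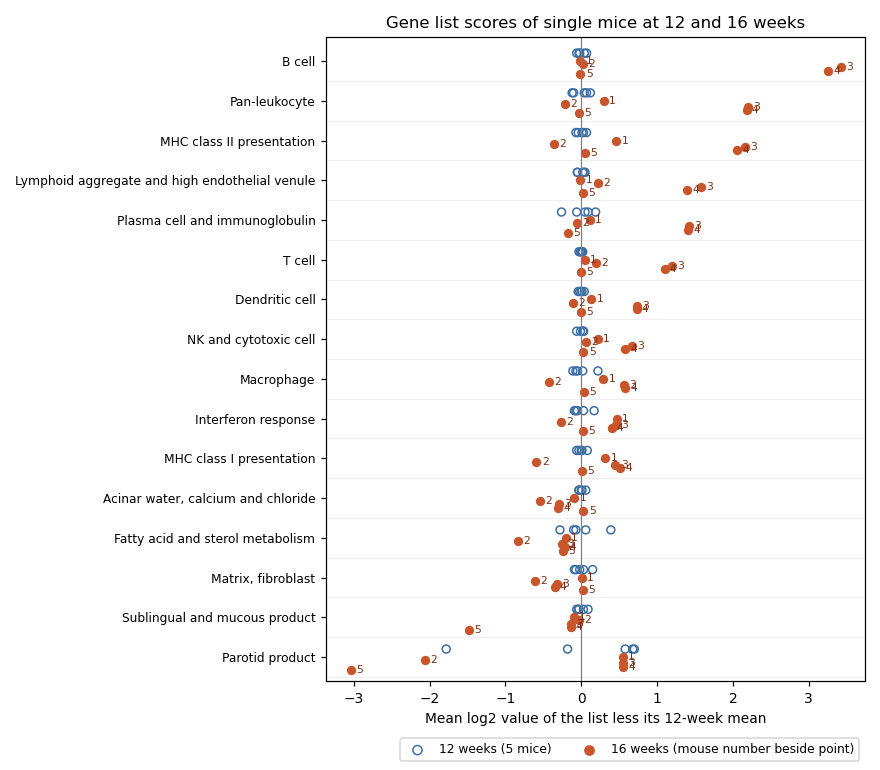
Scores of 16 gene lists (mean log2 value of the list less its 12-week mean) for the 5 mice of 12 weeks (open blue circles) and the 5 mice of 16 weeks (orange, numbered). Mice 3 and 4 at 16 weeks have B cell scores of 3.42 and 3.25 with mice 1, 2 and 5 at 0, mouse 1 lies beside mice 3 and 4 for the interferon list, and mice 2 and 5 have parotid scores of -2.06 and -3.04.

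Genes that organise lymphoid aggregates were high in the same mice. Cxcl13, the chemokine that attracts B cells, read 2.71, 2.80, 7.86, 7.27 and 2.67 in mice 1 to 5 at 16 weeks against 2.57 to 2.90 at 12 weeks. Ltb, which encodes lymphotoxin beta, read 4.33, 4.29, 9.47, 9.46 and 3.55 against 4.07 to 4.33, and Cr2, a complement receptor of B cells and follicular dendritic cells, 2.28, 2.48, 4.51, 4.89 and 2.36 against 2.32 to 2.37. Glycam1, a mucin-like ligand of L-selectin made by high endothelial venules, read 3.76, 4.35, 7.79, 7.12 and 4.13 against 3.77 to 4.19. In all 4 genes mice 3 and 4 stood apart from the other 8 mice, and none had an adjusted p under 0.571. The list of 17 such genes had a median difference of 0.53, with 4 higher and 0 lower at an unadjusted p under 0.05, and 0.038 without mice 3 and 4. Without that pair Cxcl13, Ltb, Cr2 and Glycam1 differed by 0.0080, -0.13, 0.019 and 0.052. Glycam1 and Cxcl13 are also made in lymph nodes. Whether lymph node tissue contributed RNA was not tested.

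Of 34 measured chemokine genes 5 were higher and 1 lower at an unadjusted p under 0.05, and the list median was 0.019. Ccl5, made by T cells and other activated cells, read 7.18, 5.71, 9.19, 8.78 and 5.93 against 5.04 to 5.76, so that mice 1 and 5 joined mice 3 and 4 above the 12-week range (difference 1.91, SE 0.60, adjusted p 0.444). Without mice 3 and 4 the difference was 0.83. Of 26 adhesion genes 8 were higher and 1 lower. The shares over all genes were 2.19% and 5.47%. Vcam1, which binds integrins of lymphocytes on inflamed endothelium, differed by 0.71 over its 3 probe sets, which gave 1.92, 0.24 and -0.013 singly, and by 0.22 without mice 3 and 4. Icam1, another endothelial ligand of integrins, differed by 0.64 (adjusted p 0.613) and by -0.051 without mice 3 and 4. Ackr3, an atypical receptor that removes the chemokine Cxcl12, was lower by 0.67 (adjusted p 0.508).

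The lymphoid signal was not limited to 16 weeks. B cell scores, relative to 12 weeks, reached 1.15 in mouse 4 and 0.78 in mouse 5 at 4 weeks, 1.03 in mouse 4 at 8 weeks, and 1.47 in mouse 3 and 0.85 in mouse 2 at 20 weeks. Of these, mouse 3 at 20 weeks had an array unlike the rest of its age (median correlation 0.897). The 12-week mice were thus uniformly low for this list, and the 2 highest B cell scores of all 25 mice were at 16 weeks. Other lymphoid genes were not all highest there. At 4 weeks Glycam1 read 9.11, 9.62 and 8.07 in mice 3, 4 and 5. In mice 3 and 4 at 16 weeks it read 7.79 and 7.12. Ighm read 9.60 in mouse 3 at 20 weeks against 8.91 or less at 16 weeks. Cxcl13, Ltb, Cr2 and Jchain were highest in mouse 3 or 4 at 16 weeks.

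**Figure D4:**
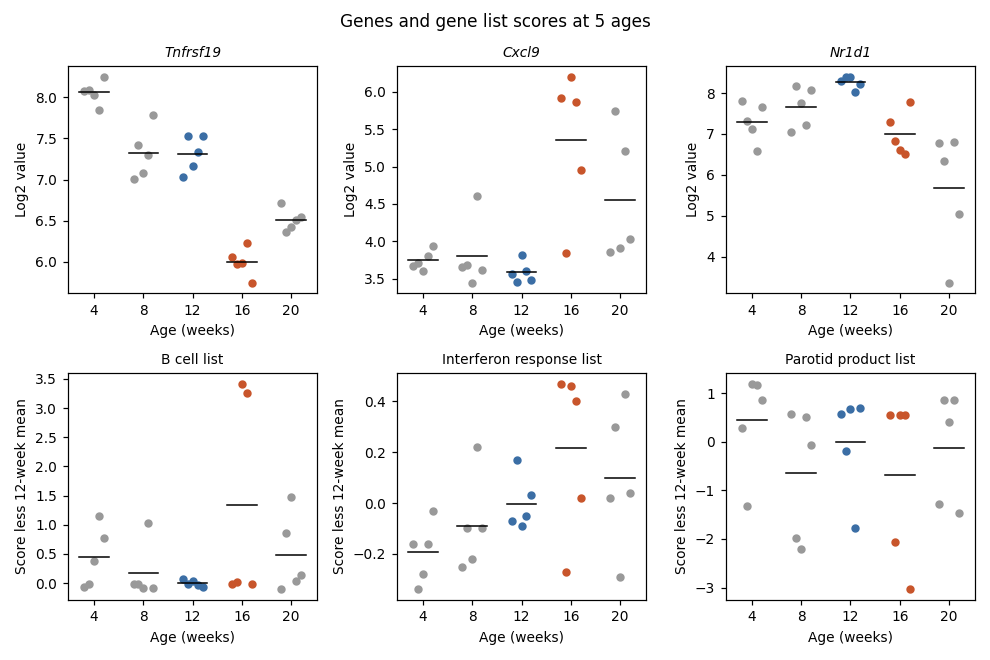
Log2 values of Tnfrsf19, Cxcl9 and Nr1d1 (upper row) and scores of the B cell, interferon response and parotid lists less their 12-week mean (lower row) for each mouse at the 5 ages. Lines are means of 5 mice, 12 weeks is blue and 16 weeks orange. Single mice with B cell scores near 1 or above occur at 4, 8, 16 and 20 weeks and none at 12 weeks.

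MHC class II genes, whose products present antigen to CD4 T cells, had list scores of 0.46, -0.36, 2.16, 2.06 and 0.05 in mice 1 to 5 at 16 weeks. H2-Ab1 read 8.22, 6.58, 9.16, 9.15 and 7.43 in mice 1 to 5 against 6.94 to 7.59 at 12 weeks, and H2-Eb1 read 10.54, 8.83, 11.44, 11.24 and 9.65 against 9.43 to 9.81. Mouse 2, whose array was dim as a whole, lay below the 12-week range for both. H2-DMa, which loads peptides onto class II, read 4.93, 3.80, 6.98, 6.46 and 3.76 against 3.75 to 3.81 (difference 1.41, SE 0.50, adjusted p 0.502). H2-Oa, which holds back that loading in B cells, differed by 1.69 and by 0.035 without mice 3 and 4. Without that pair H2-Ab1, H2-Eb1 and H2-DMa differed by 0.22, 0.037 and 0.39. All 11 measured genes had a difference above 0, with 3 at an unadjusted p under 0.05 and a median of 0.71, which was 0.037 without mice 3 and 4 and 1.08 without mouse 2. In class I presentation the median of 18 genes was 0.070. Psmb9, an inducible subunit of the immunoproteasome, read 6.31, 4.59, 6.92, 7.27 and 5.58 against 4.60 to 5.42 (difference 1.05, adjusted p 0.508), and Psmb10, another such subunit, differed by 0.68. These were 0.41 and 0.16 without mice 3 and 4. B2m, the light chain of class I, differed by 0.058 and read 11.91 in mouse 2 and 12.76 to 12.95 in the other 4.

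Cxcl9, a chemokine gene induced by interferon gamma, was the clearest increase outside the lymphoid genes. It read 3.56, 3.46, 3.82, 3.61 and 3.49 in mice 1 to 5 at 12 weeks and 5.91, 3.85, 6.20, 5.86 and 4.95 in mice 1 to 5 at 16 weeks. All 5 older mice were above the younger ones, mouse 2 only just. The difference was 1.77 (SE 0.38, adjusted p 0.209), and it passed the test without mouse 2 (2.14, adjusted p 0.0205). Without mice 3 and 4 it was 1.32 and with the pair averaged 1.60, so it did not rest on that pair alone. The means at 4, 8 and 20 weeks were 3.75, 3.80 and 4.55. Of its 2 probe sets the dimmer had a difference of 0.047.

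The interferon response list had 36 measured genes, 10 of them higher and 1 lower at an unadjusted p under 0.05, with a median difference of 0.13. The list scores of mice 1 to 5 were 0.47, -0.27, 0.46, 0.40 and 0.02 where the 12-week mice lay between -0.09 and 0.17. Mouse 1, with no B cell signal, was thus as high as mice 3 and 4. Igtp, a GTPase that acts against intracellular parasites, read 6.09, 5.12, 6.65, 6.78 and 5.11 against 4.94 to 5.11 (difference 0.89, SE 0.25, adjusted p 0.353). Gbp6, a guanylate-binding protein gene, read 4.97, 3.77, 5.42, 4.80 and 3.80 against 3.44 to 3.81, and Ifi47, another interferon-inducible GTPase, 5.56, 4.99, 7.98, 7.98 and 4.96 against 4.53 to 5.0. Their differences were 0.98 and 1.48, and 0.61 and 0.35 without mice 3 and 4, where that of Igtp was 0.38. The list median was 0.049 without mice 3 and 4 and 0.21 without mouse 2.

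The promoters of 3 of these genes are shown because interferon acts through short motifs close to gene starts. Each window of 300 bases runs from 250 before to 50 after the start, in RefSeq coordinates of GRCm38.p6, 5′ to 3′ on the strand of the gene. Capitals mark matches, on either strand, to the gamma-activated sequence TTCNNNGAA and to a short form of the interferon-stimulated response element, GAAA and GAAA with any 2 bases between. The Igtp window is chr11:58199306-58199605 on the plus strand, with a gamma-activated sequence at positions 206 to 214 of the window and a response element at 217 to 226. The Ifi47 window is chr11:49076337-49076636 on the plus strand and the Cxcl9 window is chr5:92328030-92328329 on the minus strand, and neither holds these letters.
Igtp: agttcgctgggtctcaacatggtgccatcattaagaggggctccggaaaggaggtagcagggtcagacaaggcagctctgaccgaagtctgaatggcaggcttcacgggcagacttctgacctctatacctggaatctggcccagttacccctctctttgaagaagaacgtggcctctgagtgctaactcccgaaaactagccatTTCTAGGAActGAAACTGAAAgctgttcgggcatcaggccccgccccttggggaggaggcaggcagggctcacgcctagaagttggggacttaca
Ifi47: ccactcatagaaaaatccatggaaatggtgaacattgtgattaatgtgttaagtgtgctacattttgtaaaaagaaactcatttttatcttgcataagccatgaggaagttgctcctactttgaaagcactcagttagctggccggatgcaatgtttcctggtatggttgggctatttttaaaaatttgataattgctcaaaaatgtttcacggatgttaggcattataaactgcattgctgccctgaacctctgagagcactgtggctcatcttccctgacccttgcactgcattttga
Cxcl9: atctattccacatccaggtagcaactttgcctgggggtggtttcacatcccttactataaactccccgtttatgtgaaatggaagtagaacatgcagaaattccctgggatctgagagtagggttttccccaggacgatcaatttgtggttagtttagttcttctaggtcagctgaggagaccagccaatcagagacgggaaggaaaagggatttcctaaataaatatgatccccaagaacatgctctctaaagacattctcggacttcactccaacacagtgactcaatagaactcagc
Over 27025 genes with a promoter window, 9.55% held the gamma-activated sequence and 3.99% the response element. Of the 25 interferon list genes with a window, 7 (28.0%) and 14 (56.0%) did.

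Receptors of the TNF superfamily pass signals for survival, growth or death. Of 27 measured members, Tnfrsf19 among them, none other passed the adjusted p, and the list median was 0.025, with 3 higher and 2 lower (Tnfrsf19 and Tnfrsf12a) at an unadjusted p under 0.05. Tnfrsf12a, the receptor for TWEAK, read 5.37, 5.37, 4.29, 3.98 and 5.07 in mice 1 to 5 against 5.36 to 5.84 (difference -0.67, SE 0.23, adjusted p 0.497), so mice 3 and 4 were the lowest, and without them the difference was -0.21. Tnfrsf13b, the B cell receptor TACI, read 5.13 and 4.34 in mice 3 and 4 and 2.31 to 2.45 in the other 8 mice, and differed by 0.049 without that pair. Relb, a subunit of the non-canonical NF-kB pathway, differed by 0.68 and by 0.28 without the pair. Among 31 apoptosis genes 1 was higher and 3 lower at an unadjusted p under 0.05, with a median of -0.082. The shares over all genes were 2.19% higher and 5.47% lower. Pmaip1, a death-promoting Bcl2 family gene, differed by 0.69 (0.48 without mice 3 and 4), Bcl2l11, which encodes BIM, by -0.45, and Bcl2l2, a survival gene, by -0.78. Of 29 genes of Wnt signalling and stem cells 0 were higher and 5 lower. Znrf3, which removes Wnt receptors from the cell surface, differed by -0.60, and Sox9, a transcription factor of salivary progenitors, by -0.31. After quantile normalization these were -0.37 and -0.14, and the list median was -0.014 in place of -0.12.

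Among expressed genes with a common symbol, an unadjusted p under 0.01 and no overlap between the ages, 130 were lower and 10 higher at 16 weeks. Genes named only by a clone or sequence number were left out of these counts. All 10 higher genes and the 10 largest decreases are described here, with Tnfrsf19 already given. Fam3b, a secreted protein gene, read 5.20, 5.47, 5.48, 6.46 and 5.18 in mice 1 to 5 at 12 weeks and 4.40, 3.97, 4.25, 3.97 and 2.71 in mice 1 to 5 at 16 weeks (difference -1.70, SE 0.44, adjusted p 0.284). Fam13a read 6.23, 6.33, 6.34, 5.70 and 6.27, then 4.62, 4.39, 5.16, 4.96 and 5.67, with mouse 5 just below the lowest 12-week mouse. Chn2, a regulator of the GTPase Rac, read 6.55, 7.10, 6.96, 6.75 and 7.16, then 6.34, 4.76, 5.78, 5.56 and 6.27 (difference -1.16, SE 0.24, adjusted p 0.179). Arid5b, a chromatin regulator, read 5.14 to 6.54 at 16 weeks against 6.65 to 7.46. Without mouse 2 the 4 differences were -1.73, -1.07, -0.91 and -1.31.

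In the others single mice stood out. Olfml3, a matrix protein gene, differed by -1.62, with mice 2, 3 and 4 at 4.63, 5.15 and 4.60 and mice 1 and 5 at 6.19 and 6.23, against 6.65 to 7.33. Ceacam10 (-1.29) and Kcne1 (-1.19), which encodes a potassium channel subunit, were lowest in mouse 5, at 3.04 and 3.71, where the other 4 mice read 4.62 to 5.01 and 5.28 to 5.88. Anxa3 (-1.22) and Mal (-1.09), a protein of apical membrane sorting, were lowest in mouse 2, at 4.88 and 4.95. With array weights, all of the 9 named here and in the paragraph above passed an adjusted p under 0.05 (limma). The weights were low for mouse 2 at 16 weeks (0.098) and mouse 3 at 20 weeks (0.016), and high for mouse 5 at 12 weeks (5.4). With mouse 2 at 16 weeks left out instead, 1 gene passed as lower, Tnfrsf19. The increases without overlap, by the rule above, were Cxcl9, Klhl6, Selplg, Per2, Akna, Igtp, Fyb, Stk10, Sla and Icosl. Of these, Cxcl9, Per2, Akna, Igtp and Icosl also passed with array weights. Klhl6, which is needed for B cell germinal centres, differed by 1.77 but by 0.58 without mice 3 and 4. Akna, Fyb, Sla and Icosl, all genes of lymphocytes or of their partners, differed by 0.95, 0.77, 0.50 and 0.30, or by 0.46, 0.18, 0.17 and 0.12 without mice 3 and 4. Stk10, a kinase of lymphocytes, differed by 0.75, with its highest value in mouse 2.

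Genes of gland products differed between mice of the same age. Whether the share of each gland in a sample differed was not tested. Amy1, the salivary amylase gene of the parotid gland, read 15.44, 13.90, 15.67, 10.06 and 15.64 in mice 1 to 5 at 12 weeks and 15.66, 9.93, 15.75, 15.74 and 9.80 in mice 1 to 5 at 16 weeks. Mouse 4 at 12 weeks and mice 2 and 5 at 16 weeks were thus far lower than the other 7. Bpifa2, the parotid secretory protein, followed with 14.27 in the first of these and 13.76 and 11.92 in the others, against 14.84 to 15.33. The scores of the parotid list were 0.58, -0.18, 0.68, -1.78 and 0.70 at 12 weeks and 0.55, -2.06, 0.55, 0.55 and -3.04 at 16 weeks. Sublingual products were low in mouse 5 at 16 weeks. In it Smgc, a submandibular and sublingual mucin gene, read 3.64 against 7.56 to 8.15 in the other 9 mice. Dcpp3, a secreted protein, read 8.29 against 14.48 to 14.87, and Galnt12, which starts mucin glycans, 3.88 against 7.41 to 8.69. Dcpp3 is a member of both the parotid and the sublingual list, so the scores of these lists share it. For Smgc and Galnt12 the other 4 mice of 16 weeks were also below every 12-week mouse, by far less. The parotid and sublingual lists had medians of -0.77 and -0.065, with 0 genes at an unadjusted p under 0.05 in either direction. Mice 3 and 4 had the highest parotid scores of their age together with mouse 1. Mice 2 and 5 of that age, with the lowest parotid scores, had B cell scores of 0.02 and -0.01, and T cell scores of 0.19 and 0.00. The part of parotid tissue in the lymphoid signal was not tested. At 12 weeks mice 1, 3 and 5 had parotid scores of 0.58 to 0.70 and B cell scores of -0.06 to 0.07.

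Genes of fluid secretion had medians below 0. Of 22 measured genes of acinar water, calcium and chloride handling, 0 were higher and 3 lower at an unadjusted p under 0.05, with a median of -0.29. Over all genes 2.19% were higher and 5.47% lower. Ano1, the apical chloride channel, read 9.03, 8.32, 8.85, 8.71 and 10.26 in mice 1 to 5 against 9.62 to 10.09, so mouse 5 was the highest of all and the other 4 were below every 12-week mouse (difference -0.82, SE 0.38, adjusted p 0.632). Car2, a carbonic anhydrase, read 8.37, 6.88, 8.27, 8.24 and 8.66 against 8.73 to 8.99 (difference -0.78, adjusted p 0.492). Aqp5, the water channel of acinar cells, read 11.19, 10.71, 11.13, 10.91 and 11.16 against 10.99 to 11.50 and differed by -0.19 (SE 0.20), or 0.0080 after quantile normalization. In ducts, Slc26a6, an anion exchanger, differed by -1.07 (SE 0.30, adjusted p 0.353), Elf5, an epithelial transcription factor, by -0.64 with no overlap, and Krt19, a keratin of ducts, by -1.27. In the duct list 0 were higher and 3 of 23 lower, with a median of -0.24. Rab27b and Rab26, small GTPases of secretory granules, differed by -0.61 and -0.54 and the exocytosis list by a median of -0.26. For ER folding and export it was -0.29 over 33 genes.

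These medians lay below the -0.13 of the median expressed gene and were nearer 0 once quantile normalization was added. After it the acinar, duct, exocytosis and ER medians were -0.076, -0.0090, -0.081 and -0.090, and the respiratory chain list, with all 37 measured genes below 0 and a median of -0.19, was at -0.010. Fatty acid and sterol metabolism had a median of -0.40 before and -0.17 after. In it Elovl6, which lengthens fatty acids, read 6.11, 6.80, 7.17, 6.67 and 6.57 in mice 1 to 5 at 12 weeks and 5.86, 5.19, 5.63, 5.67 and 5.72 in mice 1 to 5 at 16 weeks. Its difference was -1.05 (SE 0.27, adjusted p 0.284) with no overlap, and -0.84 after quantile normalization. Dhcr7, the last enzyme of cholesterol synthesis, differed by -0.64 and Fdps, which makes farnesyl diphosphate, by -0.83 (-0.37 and -0.59 after quantile normalization). Of the 31 measured genes 0 were higher and 5 lower at an unadjusted p under 0.05. Lipe, the hormone-sensitive lipase of fat cells, differed by -0.49 (SE 0.13) with no overlap, while the adipocyte score was 1.80 in mouse 3 at 12 weeks and between -0.82 and 0.08 in the other 9 mice.

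**Figure D5:**
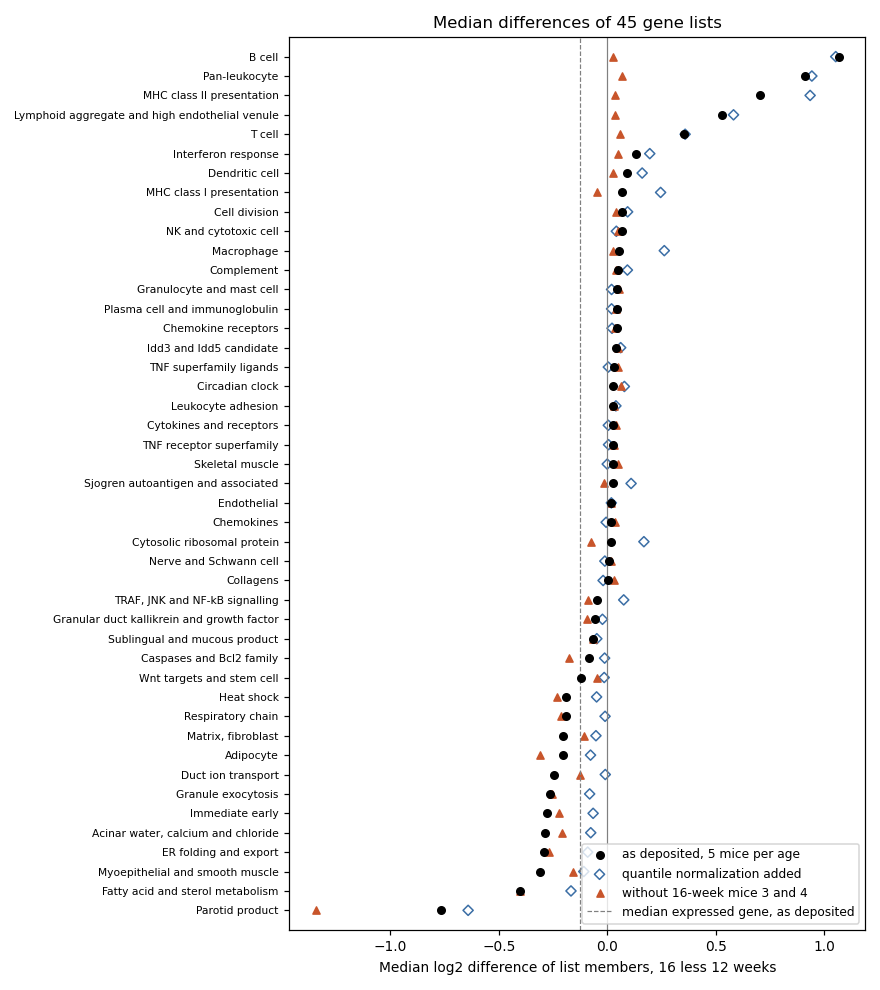
Median log2 difference (16 less 12 weeks) of the measured members of 45 gene lists as deposited (black), with quantile normalization added (blue diamonds) and without mice 3 and 4 of 16 weeks (orange triangles). The dashed line is the median expressed gene at -0.13. The B cell median goes from 1.07 to 0.028 without mice 3 and 4, and the acinar median from -0.29 to -0.076 with quantile normalization.

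Collagen I genes were lowest in mice 2, 3 and 4 at 16 weeks. Col1a1, of type I collagen, read 6.04, 4.88, 5.50, 5.15 and 5.88 in mice 1 to 5 at 16 weeks against 5.55 to 6.82 (difference -0.85, SE 0.24, adjusted p 0.367), and Col1a2, its partner chain, 7.35, 5.85, 6.20, 5.84 and 7.40 against 7.05 to 7.73. Matn2, an adaptor protein of matrix filaments, differed by -0.79 and Ogn, a small proteoglycan gene, by -0.39, with the same 3 mice lowest. The 3′ to 5′ differences of RNA quality probe sets widen as RNA breaks down, and those of Gapdh and actin were largest in these 3 arrays. For Gapdh they were 1.21, 1.08 and 1.06 against 0.25 to 0.83 in the other 7 mice, and for actin 3.68, 3.14 and 3.21 against 2.33 to 3.05. For the transferrin receptor, another such control, they were 0.76, 0.85 and 0.80 against 0.68 to 0.92, so these arrays were not the highest. Olfml3 above and Nr1d1 below were lowest in the same 3 mice. The part of RNA quality in these differences was not tested. Spon2, a secreted matrix protein, had the next lowest p after Tnfrsf19, with 3.05, 2.88, 3.15, 2.88 and 2.93 against 3.18 to 3.56 (difference -0.39, SE 0.068, adjusted p 0.095), but neither of its 2 probe sets was expressed. It passed the adjusted p (limma) under 5 alternatives, from 0.0212 without mouse 5 at 12 weeks to 0.0449 with array weights. Of 37 matrix and fibroblast genes 0 were higher and 7 lower at an unadjusted p under 0.05, with a median of -0.21, and of 37 collagens 0 and 4, with a median of 0.0030. In endothelium 2 of 24 genes were higher and 2 lower. For all genes these shares were 2.19% higher and 5.47% lower. Egfl7 differed by 0.54 and Lyve1, of lymphatic vessels, by 0.43, or 0.26 and 0.091 without mice 3 and 4.

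Clock genes differed in opposite directions. Per2, a repressor of the circadian loop, read 3.99, 4.10, 3.73, 3.61 and 3.56 in mice 1 to 5 at 12 weeks and 5.89, 4.20, 4.26, 5.27 and 5.14 in mice 1 to 5 at 16 weeks. It was higher in all 5 older mice (difference 1.15, SE 0.37, adjusted p 0.449), with mice 3 and 4 far apart. Nr1d1, a repressor of Bmal1, read 8.02 to 8.40 at 12 weeks and 7.30, 6.82, 6.62, 6.50 and 7.78 at 16 weeks, lower in all 5 (difference -1.26, SE 0.47, adjusted p 0.508). Clock differed by -0.50. At 8 weeks Per2 read 4.46 to 6.73 between mice. The hour at which the mice were killed is not given in the sources used here, and its part in these differences was not tested. Of 19 clock genes 1 was higher and 2 lower at an unadjusted p under 0.05, with 1 and 2 free of overlap. For all genes the shares were 2.19% and 5.47% at that p, and 0.555% and 2.83% free of overlap. Immediate early genes, which respond within minutes to many stimuli, had a median of -0.28 and scored lowest in mouse 2 (-0.81). Atf3 and Ier3 differed by -0.81 and -0.90.

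Genes of dividing cells gave small differences. Mki67, which marks them, differed by 0.74 and Mcm3, of DNA replication, by 0.70, or 0.15 and 0.12 without mice 3 and 4. Bub1b, of the spindle checkpoint, differed by 0.64, by 0.76 without mice 3 and 4, and by 0.37 without mouse 2 at 16 weeks. The dim probe sets of Bub1b had differences of 0.085 and 0.017. The 31 cell division genes had a median of 0.068, with 3 higher and 0 lower at an unadjusted p under 0.05. Among all genes 2.19% were higher and 5.47% lower. Of 16 candidate genes in the Idd3 and Idd5 regions 3 were higher and 0 lower, with a median of 0.040. Icos, a costimulator of T cells, read 3.16 and 3.48 in mice 3 and 4 and 2.32 to 2.49 in the other 8, with a difference of 0.078 without that pair. Ctla4, its inhibitory relative, differed by 0.22, and Slc11a1, a metal transporter of macrophages, read 3.66, 3.64, 4.47, 4.37 and 3.63 against 3.61 to 3.63. The differences without mice 3 and 4 were 0.069 for Ctla4 and 0.023 for Slc11a1. Cfp, the complement activator properdin, differed by 0.50, or 0.10 without mice 3 and 4. Its probe sets, both below the expressed level, gave 0.97 and 0.035 singly. In the complement list 4 of 27 genes were higher and 0 lower. The complement scores of mice 1 to 5 at 16 weeks were 0.12, -0.19, 0.38, 0.43 and -0.03. Cryab, a small heat shock protein, differed by -0.48, and was the 1 of 18 heat shock genes at an unadjusted p under 0.05.

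The remaining lists had medians between -0.31 and 0.093. Their counts stand beside 2.19% higher and 5.47% lower over all genes. Among immune lists, the medians were 0.093 for 17 dendritic cell genes (5 higher and 0 lower at an unadjusted p under 0.05), 0.066 for 15 cytotoxic cell genes (3 and 0), 0.047 for 17 granulocyte and mast cell genes (1 and 0), 0.043 for 20 chemokine receptor genes (4 and 1) and 0.025 for 50 genes of cytokines and their receptors (6 and 0). Ligands of the TNF superfamily had 0 of 14 in either direction and a median of 0.033, and the TRAF, JNK and NF-kB list 2 and 0 of 25 and -0.048. In the autoantigen list, genes of proteins that antibodies of patients bind and of genes tied to the disease, 6 of 26 were higher and 0 lower, with a median of 0.025. The granular duct list, which holds kallikreins and growth factors of the submandibular gland, had 0 of 16 in either direction and a median of -0.056. Myoepithelial and smooth muscle genes had a median of -0.31 with 0 and 1 of 20, nerve genes 0.0080 with 0 and 1 of 18, skeletal muscle genes 0.025 and cytosolic ribosomal protein genes 0.017, both with 0 in either direction.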

How the data were processed

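RNA of 25 mice (5 at each of 5 ages), each from a lobe holding submandibular, sublingual and parotid gland, had been measured on 1 array each. The authors deposited log2 values per probe set, for 45101 probe sets. The methods name GCRMA, while the submitters' processing notes name RMA. The version is not given in the sources used here. No normalization was added. Arrays carry no read depth, and 5 mice per age and signal over background limit the precision. Probe sets with 1 gene symbol in the platform annotation (34958) were kept, and 932 with several and 9211 without an entry were left out. A gene's value is the mean of its expressed probe sets (mean log2 value above 3.27, the median over probe sets), or of all where none is expressed.

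All ages entered a single limma fit (version 3.58.1, under R 4.3.3) with no covariate and the contrast of 16 less 12 weeks, two-sided, adjusted over 18194 genes. Data for this contrast were also simulated, with 18194 genes. In them 65 of 100 genes changed by 1 log2 unit and 90 of 100 changed by 2 were recovered. There were 4 false among 159 calls. Whether these rates hold for the measured arrays was not tested. At 16 weeks those arrays had a larger SD than at 12 weeks, a dim array (mouse 2) and a close pair (mice 3 and 4). The 45 gene lists (981 distinct measured genes), the named genes and the tests were chosen with earlier results of these data known. Named are genes past the test, up to 3 genes of lowest p per list and a fixed panel. The 10 largest increases and decreases without overlap and with an unadjusted p under 0.01 are named too. For these only expressed genes with a common symbol were ranked, not clone or sequence numbers. The text gives 105 of the 170 genes that these rules yield. Lists are described by counts and medians without a test. Promoter windows come from RefSeq, GRCm38.p6. Python 3.11.15, pandas 2.3.3 and matplotlib 3.10.9 made summaries and figures.

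Alternatives were all probe sets averaged, the brightest probe set, expressed genes alone, quantile normalization, array weights, a robust prior with a trend, the 2 ages alone, the replicate block, probe sets singly and arrays left out. Chosen after seeing the data were the upper quartile as a covariate, leaving out 2 arrays that stood apart, and leaving out or averaging mice 3 and 4 at 16 weeks.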

Additional observations from a re-analysis of the deposited data

Results flagged for a closer look

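In groups of 5 mice, the highest or lowest mouse stood apart by Dixon's criterion (a gap to its neighbour above 0.71 of the group's range) in 26 of 300 groups examined at 12 or 16 weeks, where chance gives about 1 in 20. At 16 weeks mouse 5 was low for the sublingual and mucous list score (-1.48) and for Smgc (3.64), Dcpp3 (8.29), Galnt12 (3.88), Fam3b (2.71), Ceacam10 (3.04) and Kcne1 (3.71). Mouse 2 was low for B2m (11.91) and Car2 (6.88), and for the scores of the immediate early list (-0.81) and the fatty acid and sterol list (-0.83). Cd3e was high in mouse 3 (3.71), and the Wnt and stem cell score was high in mouse 1 (-0.02). Since mice 3 and 4 lie close together, the criterion does not single out either for most lymphoid genes.

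At 12 weeks mouse 3 was high for Cd79a (3.22), Lipe (5.12) and the adipocyte score (1.80), mouse 2 was high for Tnfrsf12a (5.84), Dhcr7 (8.80) and the ER folding and export score (0.13) and low for Ctla4 (3.01), and mouse 4 was high for Fam3b (6.46) and low for Igtp (4.94) and Fam13a (5.70). Mouse 1 was low for Ceacam10 (5.33) and high for Cd83 (4.14), and mouse 5 was low for Selplg (4.87).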

How the results depend on the processing

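Tnfrsf19 passed the test under 22 of 23 alternatives and missed it after quantile normalization (-1.06, adjusted p 0.094). Leaving out 1 array at a time gave 0 to 1 genes past the adjusted p as higher and 1 to 10 as lower, 181 to 572 higher and 542 to 1396 lower at an unadjusted p under 0.05, and 116 to 583 and 541 to 1426 without overlap. The 10 lower genes came without mouse 1 at 12 weeks, and the gene that passed as higher without mouse 2 at 16 weeks was Cxcl9. Array weights gave 54 and 186 genes past the adjusted p and 1004 and 1766 at an unadjusted p under 0.05. Quantile normalization gave 0 lower past the adjusted p, 525 lower at the unadjusted p and 253 lower without overlap. The 2 ages alone gave 5 lower past the adjusted p and 179 higher and 2112 lower at the unadjusted p, and without mouse 3 at 20 weeks these were 8, 620 and 1922. Expressed genes alone gave 226 higher at the unadjusted p and 45 without overlap, and single probe sets 643 and 207. Without mouse 2 at 16 weeks and mouse 3 at 20 weeks 2 genes passed as higher and 2 as lower, with 731 higher at the unadjusted p and 194 without overlap. Without mice 3 and 4 at 16 weeks there were 260 higher and 659 lower at the unadjusted p and 821 higher without overlap, and with that pair averaged 182 and 160 higher. Fewer mice make an overlap less likely. The cause of the other shifts was not tested.

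Of 1035 list medians under the alternatives 26 moved by more than the spread between mice. With quantile normalization these were Wnt targets (-0.014), acinar (-0.076), duct (-0.009), exocytosis (-0.081), ER export (-0.090) and respiratory chain (-0.010). With the upper quartile as a covariate they were granulocyte (-0.021), MHC class I (0.434), acinar (-0.059), duct (0.058), exocytosis (-0.005), ER export (0.033), myoepithelial (0.034), heat shock (0.116), respiratory chain (0.071) and fatty acid metabolism (-0.077). With expressed genes alone they were lymphoid aggregate (1.17), TNF ligands (0.23), Wnt targets (-0.191), collagens (-0.149), skeletal muscle (0.133) and nerve (-0.307). Wnt targets were at -0.23 with the brightest probe set and -0.045 without mice 3 and 4 at 16 weeks. Nerve genes were at -0.044 (without mouse 2 at 16 weeks) to 0.025 with 1 array left out, and at -0.044 also when mouse 3 at 20 weeks was left out with mouse 2.

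Signs turned for few named genes, none of them called. Without mice 3 and 4 at 16 weeks the differences were Cd79a -0.086, Ms4a1 -0.036, Ptprc -0.408, Ltb -0.129, Lyz1 -0.074, B2m -0.070 and Icam1 -0.051. Cd3e was at -0.017 and Aqp5 at 0.014 with the upper quartile as a covariate, Aqp5 at 0.008 with quantile normalization, Vcam1 at -0.013 with the brightest probe set, and with 1 array left out B2m lay between -0.013 (without mouse 5 at 16 weeks) and 0.247 and Amy1 between -1.788 and 0.126 (positive without mouse 2, 0.094, or mouse 5 at 16 weeks). Amy1 was also at 0.094 without mouse 2 at 16 weeks and mouse 3 at 20 weeks.

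Mice of the 2 ages share numbers, but the deviations of same-numbered mice correlated at -0.28 to 0.074, so the numbers do not pair them. With the replicate block 0 genes passed as higher and 1 as lower, with 412 and 972 at an unadjusted p under 0.05. The block left every count within 1.5 times of that reported.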
